A study of Mus musculus with 12 samples.

Results

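The 34 genes described here encode the machinery that folds, checks and disposes of proteins in the endoplasmic reticulum (ER), together with the sensors and factors of the unfolded protein response. They were taken as a fixed list of gene symbols, and all 34 were among the 36144 symbols of the deposited table. By role they fell into 12 chaperones and folding helpers, 5 disulfide isomerases and oxidases, 8 genes of ER-associated degradation, 4 of translocation and export, and 5 sensors and factors. Their RNA was measured in 12 poly-A libraries of primary hepatocytes from a WT C57/Bl6J mouse, 3 per group. After plating in serum, all cells were kept overnight, 16 h, in serum-free medium. The Mock group received no further agent. The FD group was given 10 µM forskolin, an activator of adenylate cyclase, together with the glucocorticoid dexamethasone at 1 µM, for the 5 h before lysis. The FDI group received 100 nM insulin 1 h before the same forskolin and dexamethasone, and the FDMn group had 6 µM MnCl2 in the overnight medium before forskolin and dexamethasone as in FD. No group had manganese or insulin alone, and the 2 agents were present for different times. The labels speak of one animal and do not say whether replicates were separate preparations, so the p-values rest on a spread between samples that may be only technical.

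Proteins that enter the secretory pathway are threaded into the ER through the Sec61 channel and are bound there by the Hsp70 chaperone BiP (Hspa5), by the Hsp90 chaperone GRP94 (Hsp90b1) and, when they carry sugars, by the lectins calnexin (Canx) and calreticulin (Calr). Disulfide isomerases set their cysteine bonds, and proteins that do not fold are sent back to the cytosol by the Hrd1 complex (Syvn1 and Sel1l, with Herpud1 and the derlins). When unfolded proteins build up, the membrane sensors IRE1 (Ern1), PERK (Eif2ak3) and ATF6 set off the unfolded protein response, in which ATF6 and the spliced form of XBP1 raise chaperone and degradation genes and PERK slows translation. Hepatocytes secrete most plasma proteins and also carry CREB3L3, an ER-anchored factor that is cut in the Golgi like ATF6 and acts on genes of lipid and iron metabolism.

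Values are TPM: the share of a library's transcripts corrected for transcript length, so levels of different genes can be compared (transcripts in 1000000). Log2 changes are on the scale of log2(TPM + 1). A gene is said to rise or fall where its Benjamini-Hochberg adjusted p over the 11544 genes tested was below 0.05. The libraries held 10900 to 11161 genes at 1 TPM or more, and replicates correlated across genes at 0.981 or higher. Depth is unknown, because TPM keeps no read number. The hepatocyte marker albumin was at 22527 to 32589 TPM; FD replicate 3 had 22624 TPM of it, against 32589 and 30581 TPM in the other FD libraries. The sum of 8 markers of lymphocytes and plasma cells, the latter rich in ER chaperones, was at 0.0139 to 1.44 TPM in all libraries, with Nkg7 at 0 in each. The summed macrophage list was at 306 to 384 TPM outside FDMn and 763 to 849 TPM in FDMn, nearly all of it Cd68 (794 ± 43.4 TPM in FDMn, SD, n = 3). The summed cholangiocyte list was at 732 to 1126 TPM outside FDMn and 1412 to 1606 TPM in FDMn, mostly Spp1 (1418 ± 97.7 TPM), and the stellate list at 36.5 to 53.9 TPM outside FDMn and 16.4 to 17.2 TPM in FDMn. The part of these marker shifts in the results was not tested. Hsp90b1, Herpud1 and Eif2ak3 overlap genes on the other strand, and reads of such partners may not be told apart. In bulk RNA, fewer cells of a type and less RNA per cell cannot be told apart.

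Some of the genes carry a shared promoter element, shown here because they include Hspa5, Hsp90b1 and Calr, the chaperones described most fully below. The ER stress response element (ERSE) is the site at which ATF6 and XBP1 act together with NF-Y. It was searched as CCAAT and CCACG, 9 bases apart, on both strands of RefSeq promoter windows on GRCm38.p6, which run from 250 bases before to 50 after a gene's start; 28 of the 34 genes had at least 1 window, 30 in all. The ERSE was found in 9 of these 28 genes (32.1%), against 39 of all 32851 windows (0.119%). The related ERSE-II, ATTGG and CCACG 1 base apart, was found in 2 of the 28 (7.14%) and in 0.0365% of all windows. In both searches the first share counts genes and the other counts windows. The genes were listed for their part in this response, so the excess is not an independent result. The fixed letters are in capitals below, each element reading 5′ to 3′ on the strand given. The first 10 elements are ERSE and the last 2 are ERSE-II.
Hspa5, chr2:34772025-34772043, + strand: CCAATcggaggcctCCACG
Hsp90b1, chr10:86705638-86705656, - strand: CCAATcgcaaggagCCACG
Hsp90b1, chr10:86705533-86705551, + strand: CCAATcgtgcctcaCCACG
Calr, chr8:84847075-84847093, + strand: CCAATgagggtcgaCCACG
Canx, chr11:50325800-50325818, - strand: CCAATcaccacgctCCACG
Dnajc3, chr14:118937827-118937845, + strand: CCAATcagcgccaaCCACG
Creld2, chr15:88819520-88819538, - strand: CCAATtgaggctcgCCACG
Pdia6, chr12:17266491-17266509, + strand: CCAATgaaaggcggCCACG
Syvn1, chr19:6046532-6046550, + strand: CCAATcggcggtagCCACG
Derl3, chr10:75893242-75893260, - strand: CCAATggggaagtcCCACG
Dnajb11, chr16:22857852-22857862, + strand: ATTGGcCCACG
Herpud1, chr8:94386377-94386387, + strand: ATTGGgCCACG
By exact match Hsp90b1 was the one gene with 2 such elements, and no element overlapped another. Elements that differ from these letters were not searched, so other genes may hold further, inexact copies. The elements lay upstream of the RefSeq start, between 212 and 26 bases before it, except that of Dnajb11, which began 7 bases after it. The XBP1 site TGACGTGG (UPRE) was found in Sec24d, from 26 to 19 bases before the start, and in 0.676% of all windows. The cAMP response element TGACGTCA was in none of the 28 genes and in 1.79% of all windows, which says only that these letters are not in these windows.

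The 250 bases before the RefSeq start of the 4 genes on which the results below turn most are given in lower case, on the strand of the gene, with the fixed letters of ERSE and ERSE-II in capitals. Gene spans given below are from GENCODE M21, whose outermost start lies 120 bases upstream of the RefSeq start for Hspa5, 65 for Hsp90b1 and 3 for Calr, and 9 bases downstream for Herpud1. The Hspa5 element therefore lies inside its GENCODE span. An element that lies on the other strand shows here as CGTGG followed by ATTGG.
Hspa5, chr2:34771840-34772089, + strand: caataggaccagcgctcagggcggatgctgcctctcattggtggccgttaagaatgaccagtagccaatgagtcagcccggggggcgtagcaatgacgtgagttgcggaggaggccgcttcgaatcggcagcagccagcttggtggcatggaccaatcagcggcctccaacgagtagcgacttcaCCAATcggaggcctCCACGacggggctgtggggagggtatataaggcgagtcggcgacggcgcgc
Hsp90b1, chr10:86705445-86705694, - strand: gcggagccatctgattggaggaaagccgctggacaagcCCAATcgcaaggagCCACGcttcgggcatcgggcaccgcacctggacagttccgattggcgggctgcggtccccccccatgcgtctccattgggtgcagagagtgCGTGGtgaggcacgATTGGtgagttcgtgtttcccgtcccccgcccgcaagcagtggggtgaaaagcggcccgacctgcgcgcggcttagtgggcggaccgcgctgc
Calr, chr8:84846932-84847181, - strand: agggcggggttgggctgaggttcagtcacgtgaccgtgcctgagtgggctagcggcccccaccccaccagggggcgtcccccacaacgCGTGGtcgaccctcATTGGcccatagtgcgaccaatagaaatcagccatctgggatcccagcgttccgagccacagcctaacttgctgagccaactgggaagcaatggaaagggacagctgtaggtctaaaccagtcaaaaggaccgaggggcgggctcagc
Herpud1, chr8:94386179-94386428, + strand: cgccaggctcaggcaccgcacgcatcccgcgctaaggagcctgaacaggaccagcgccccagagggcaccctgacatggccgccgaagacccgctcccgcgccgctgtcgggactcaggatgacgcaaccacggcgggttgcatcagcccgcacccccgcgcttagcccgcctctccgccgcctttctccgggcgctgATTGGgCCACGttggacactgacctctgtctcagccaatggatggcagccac

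In untreated cells the genes spanned a wide range of levels. Calr was the highest, at 981 ± 47.9 TPM (mean ± SD, n = 3 here and below), followed by Hspa5 at 751 ± 15.1 TPM and P4hb, the classical protein disulfide isomerase, at 583 ± 6.55 TPM. In Mock 10 of the 34 genes were at 100 TPM or more. The lowest were Ero1lb, an oxidase that recharges disulfide isomerases, at 8.38 ± 0.721 TPM, Sdf2l1, a BiP cofactor, at 6.82 ± 0.598 TPM, and the derlin Derl3 at 1.75 ± 0.926 TPM. The sensors and factors ranged from 12.1 ± 1.79 TPM for Creb3l3 to 86.3 ± 3.40 TPM for Xbp1, within the range of the chaperones. Replicates were close: the median coefficient of variation of the 34 genes was 4.90% to 8.85% in the 4 groups, against 7.98% to 11.7% for all genes tested. Summed over the 34 genes, TPM was 4668 ± 100.1 in Mock, 4740 ± 119 in FD, 4527 ± 66.2 in FDI and 3776 ± 116 in FDMn. The FDMn libraries (3684 to 3906 TPM) lay below all others (4451 to 4828 TPM).

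**Figure D1:**
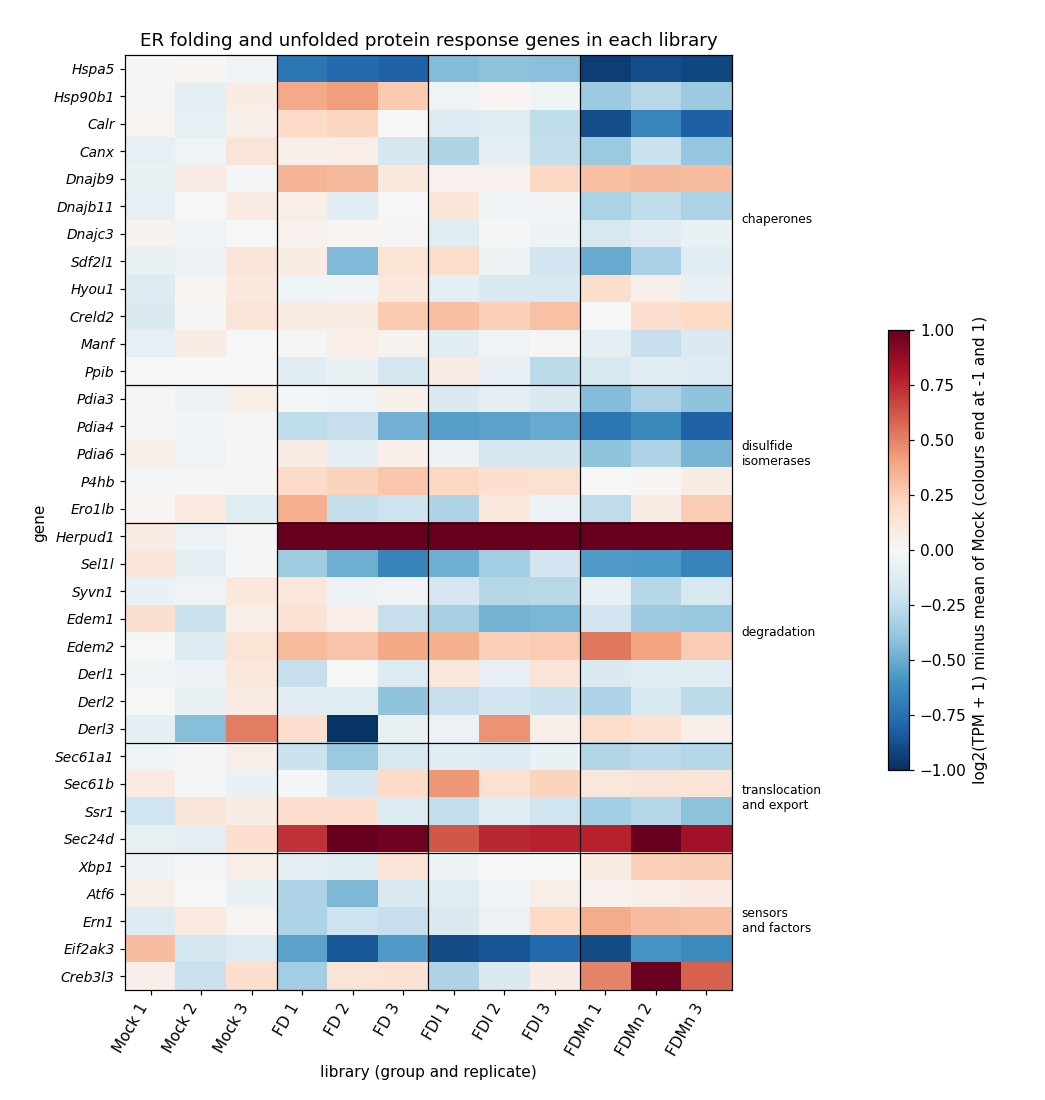
Each row is a gene, ordered by role, and each column a library; the colour is log2(TPM + 1) minus the mean of the 3 Mock libraries, with colours ending at -1 and 1. Hspa5 is below Mock in all 9 treated libraries, Herpud1 above it in all 9, and the fall of Calr is seen in the 3 FDMn libraries.

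Forskolin with dexamethasone did not move the genes as a block. In FD against Mock 6 of the 34 rose and 6 fell, where 11.2% of all genes tested rose and 29.9% fell. The median log2 change of the 34 was −0.01, and that of all genes was −0.15. This comparison depends on scaling: with median-of-ratios scaling the median of all genes was −0.004, 11 of the 34 rose and 3 fell, and the share of calls over all genes that were falls was 48.9% in place of 72.7%. With quantile normalization the median of all genes was −0.04, and 8 of the 34 rose and 3 fell. Of the 11544 genes tested 2059 rose and 1972 fell with median-of-ratios scaling, and 1782 rose and 2178 fell with quantile normalization.

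The 2 main ER chaperones went opposite ways. Hspa5 (chr2:34771970-34777547, GRCm38) was at 757, 762 and 733 TPM in Mock and at 454, 439 and 428 TPM in FD. Every FD library was below every Mock library, a log2 change of −0.77 ± 0.04 (SE, adjusted p = 2.97e-08). Hsp90b1 (chr10:86690209-86705509) was at 194, 180 and 202 TPM in Mock and at 249, 257 and 230 TPM in FD. It rose without overlap, by 0.35 ± 0.06 (adjusted p = 0.000467). Within a library, and so free of scaling, the ratio of Hsp90b1 to Hspa5, chosen after the values were seen, was 0.236 to 0.275 in Mock and 0.537 to 0.585 in FD. The exact two-sided permutation p was 0.10, the smallest that 3 against 3 allows.

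Of the other 10 chaperones and helpers, Dnajb9, a BiP co-chaperone, rose from 44.7 ± 2.40 to 53.7 ± 4.90 TPM (0.26 ± 0.08, adjusted p = 0.0183). That call ended without Mock replicate 1 or 3, without FD replicate 1 or 2, and in a fit of the 2 groups alone (adjusted p from 0.0521 to 0.0688). The remaining 9 did not pass; among them Calr was at 1000, 927 and 1017 TPM in Mock and 1120, 1139 and 985 TPM in FD (adjusted p = 0.156), and the groups overlapped. With median-of-ratios scaling 6 of the 12 chaperones rose in place of 2, with Calr (0.30, adjusted p = 0.00824), Dnajc3, Creld2 and Manf added, and Calr also passed without FD replicate 3 (0.0396). Of the disulfide genes P4hb rose, from 583 ± 6.55 to 686 ± 21.1 TPM, and Pdia4 fell, from 47.5 ± 0.842 to 37.99 ± 3.60 TPM, whereas Pdia3, the partner of the lectins, Pdia6 and Ero1lb did not pass. The Pdia4 call ended with median-of-ratios scaling (adjusted p = 0.125), under which Pdia3 rose (log2 change 0.16, adjusted p = 0.0238).

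The largest change of the 34 was that of a degradation gene. Herpud1 (chr8:94386438-94395377), the ER-membrane scaffold of the Hrd1 complex, was at 47.0, 42.7 and 44.4 TPM in Mock and at 223, 180 and 236 TPM in FD. This is a 4.77-fold higher mean, a log2 change of 2.22 ± 0.09 (adjusted p = 2.72e-09). Another member of the complex went the other way. Sel1l, which holds the Hrd1 ligase Syvn1 in place, was at 38.2, 32.5 and 34.4 TPM in Mock and fell to 27.1, 24.7 and 21.6 TPM in FD (−0.50 ± 0.10, adjusted p = 0.00169), with no overlap. Syvn1 itself was at 31.1 ± 2.09 and 31.3 ± 2.15 TPM (adjusted p = 0.95). Edem2, a lectin-like protein that helps trim sugars from misfolded proteins, rose from 27.2 ± 2.62 to 34.3 ± 1.26 TPM (adjusted p = 0.00977), while Edem1 and the 3 derlins did not pass.

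Of the translocation and export genes, Sec24d, which selects cargo in COPII vesicles, was at 19.6, 19.4 and 23.4 TPM in Mock and at 34.8, 48.9 and 41.7 TPM in FD. The groups did not overlap, and the mean was 2.01-fold higher (0.96 ± 0.12, adjusted p = 6.38e-05). Sec61a1, the channel itself, fell from 92.5 ± 3.29 TPM to 77.7 ± 5.80 TPM (adjusted p = 0.00577; 0.264 with median-of-ratios scaling), and Sec61b and Ssr1 did not pass. Among the sensors, Eif2ak3 was at 20.4, 14.4 and 14.8 TPM in Mock and at 10.9, 8.60 and 10.7 TPM in FD (−0.65 ± 0.14, adjusted p = 0.00268). All FD libraries were below all Mock libraries, although Mock replicate 1 stood well above the other 2. Atf6 went from 24.4, 23.5 and 22.3 to 18.6, 16.9 and 20.96 TPM (adjusted p = 0.0125, and 0.184 with median-of-ratios scaling). Ern1 was at 12.03, 14.2 and 13.5 TPM in Mock and 10.4, 11.3 and 11.1 TPM in FD (adjusted p = 0.0616). The Ern1 adjusted p was 0.0403 without Mock replicate 1 and 0.0349 without FDI replicate 3. Neither Xbp1 nor Creb3l3 passed.

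**Figure D2:**
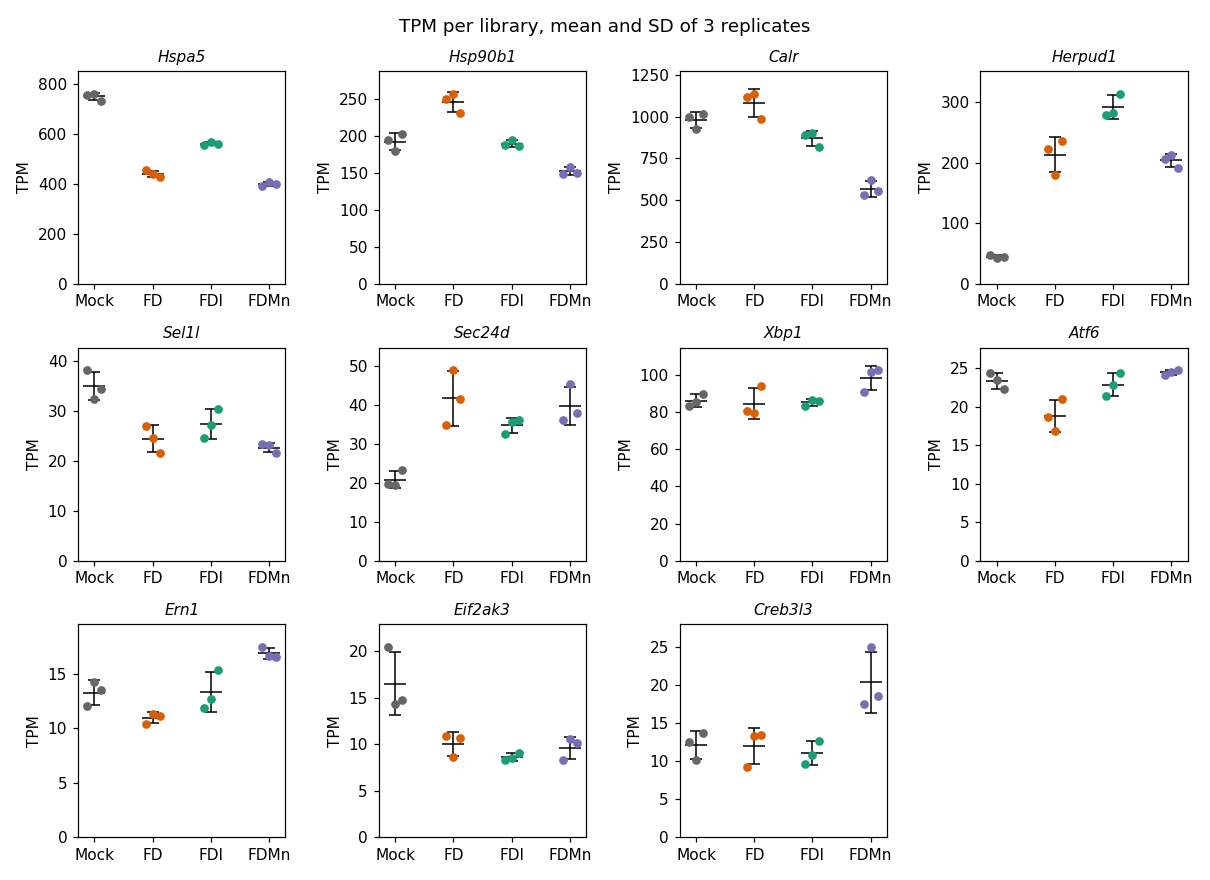
TPM (axis from 0) in each of the 12 libraries for the 11 genes named with all their values; points are libraries, the bar is the mean and the whiskers the SD of 3. Hspa5 was lower and Herpud1 higher in the 9 treated libraries than in Mock, and Ern1 and Creb3l3 were highest in the 3 FDMn libraries.

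Manganese was compared with forskolin and dexamethasone alone to see what it adds. Several chaperones and most isomerases fell, and most sensors and factors rose. Of the 34 genes 11 fell and 3 rose in FDMn against FD, where 7.9% of all genes fell and 7.22% rose. By role, 6 of 12 chaperones and helpers fell, 4 of 5 disulfide genes, 0 of 8 degradation genes and 1 of 4 translocation and export genes, while 3 of 5 sensors and factors rose. The median log2 change was −0.17 for the chaperones, −0.38 for the disulfide genes and 0.37 for the sensors and factors, beside 0.00 for all genes; these directions were the same with both other scalings. With quantile normalization 3 chaperones passed in place of 6. The number that fell was 6 without FD replicate 1, 7 without FDMn replicate 1 and 6 without FDMn replicate 3. It was 7 in a fit of these 2 groups alone. Over all 11544 genes tested the falls numbered 621, 540, 630 and 622 in those settings, in the same order. With all 12 libraries fitted 912 fell. Calls held under all 21 alternatives for 7 of the 14 genes: Hsp90b1, Calr, Pdia3, Pdia4, Pdia6, Atf6 and Ern1.

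Calr (chr8:84841850-84846934) changed most. It was at 1120, 1139 and 985 TPM in FD and at 530, 620 and 556 TPM in FDMn. The groups were far apart, with a log2 change of −0.93 ± 0.07 (adjusted p = 1.17e-05). Calr made up 22.8% of the summed TPM of the 34 genes in FD and 15.1% in FDMn, and gave −512 TPM of the −964 TPM by which the sum differed. Hsp90b1 was at 148, 158 and 149 TPM in FDMn, below every FD library (−0.69 ± 0.06, adjusted p = 1.98e-05). Hspa5, already low in FD, was at 390, 406 and 400 TPM (−0.14 ± 0.04, adjusted p = 0.0357). The groups did not overlap, but 12 of 21 alternatives ended the Hspa5 call (adjusted p from 0.0504 to 0.171), including the removal of FD replicate 1 or 2 or of any FDMn replicate.

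Calreticulin and calnexin bind the same sugar, one soluble and the other in the membrane, and their RNAs differed in the size of the change. Canx fell from 336 ± 30.8 to 271 ± 17.8 TPM (−0.31 ± 0.08, adjusted p = 0.0287), a call that ended in 8 of 21 alternatives (adjusted p from 0.0573 to 0.0979), including the removal of FD replicate 1 or 2 or FDMn replicate 1 or 3. The ratio of Calr to Canx within a library, also chosen after the values were seen, restates the values of both genes. It was 3.18 to 3.28 in FD and 2.02 to 2.14 in FDMn (exact permutation p = 0.10, the smallest possible). The ratio of Calr to P4hb, chosen likewise, was 1.39 to 1.68 in FD and 0.905 to 1.05 in FDMn (exact permutation p = 0.10). The BiP co-chaperone Dnajb11 fell from 52.2 ± 2.97 to 42.8 ± 1.10 TPM, and Manf, a secreted helper of BiP, from 105 ± 1.84 to 91.6 ± 4.15 TPM. The Dnajb11 call ended without FD replicate 1, FDMn replicate 1 or FDMn replicate 3, and the Manf call (adjusted p = 0.0445) in 13 of 21 alternatives, including the removal of any FD or FDMn replicate. Dnajb9, Dnajc3, Sdf2l1, Hyou1, Creld2 and Ppib did not pass.

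The isomerases fell by similar amounts. Pdia3 went from 269 ± 8.33 to 206 ± 9.61 TPM (−0.38 ± 0.05, adjusted p = 0.000487), Pdia4 from 37.99 ± 3.60 to 28.4 ± 1.64 TPM (−0.41 ± 0.07, adjusted p = 0.00337) and Pdia6 from 113 ± 7.04 to 85.0 ± 4.88 TPM (−0.40 ± 0.06, adjusted p = 0.00153). P4hb moved less, from 686 ± 21.1 to 597 ± 15.6 TPM (−0.20 ± 0.04, adjusted p = 0.0082). In these 4 genes no FDMn library reached the FD range, and the oxidase Ero1lb (8.38 ± 2.32 and 8.62 ± 1.68 TPM) did not pass. Ssr1, a subunit of the translocon-associated protein complex, fell from 136 ± 15.9 to 101 ± 4.60 TPM (adjusted p = 0.0133). That call ended without FD replicate 1 (adjusted p = 0.0535) or FDMn replicate 3 (0.0523).

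None of the 8 degradation genes changed with manganese at the adjusted threshold of the limma fit, though 2 were lower at an unadjusted p below 0.05. How many of all genes were lower at that unadjusted threshold was not counted. Herpud1 was at 206, 213 and 192 TPM in FDMn, within the FD range (−0.06 ± 0.09, adjusted p = 0.73), and Sel1l at 23.3, 23.1 and 21.6 TPM (adjusted p = 0.55). Edem1, at 77.6 ± 5.69 against 96.7 ± 12.9 TPM, had the smallest adjusted p of the 8 (0.0871) and passed without FD replicate 3 (0.0191). Sec24d was at 36.1 to 45.4 TPM, within the FD range (adjusted p = 0.79).

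Of the sensors and factors Ern1, Creb3l3 and Atf6 rose. Ern1 (chr11:106394650-106487852), which encodes IRE1α, was at 10.4, 11.3 and 11.1 TPM in FD and at 17.4, 16.7 and 16.5 TPM in FDMn. Every FDMn library was above every library of the other 3 groups, with a log2 change of 0.58 ± 0.10 (adjusted p = 0.00225). Creb3l3 (chr10:81084324-81098874) was at 9.26, 13.3 and 13.4 TPM in FD and at 17.5, 25.0 and 18.6 TPM in FDMn. It too was above all other libraries, by 0.72 ± 0.17 over FD (adjusted p = 0.0148), with the widest relative spread of the 34 genes in FDMn (coefficient of variation 19.9%). The Creb3l3 call ended without FD replicate 1 (adjusted p = 0.0563) or FDMn replicate 2 (0.0631). Atf6 was at 18.6, 16.9 and 20.96 TPM in FD and at 24.2, 24.6 and 24.7 TPM in FDMn (0.37 ± 0.08, adjusted p = 0.0124). Its FD and FDMn libraries did not overlap either, and its FDMn values were close to those in Mock. Xbp1 was at 80.5, 79.5 and 94.4 TPM in FD and 90.9, 102 and 103 TPM in FDMn (0.22 ± 0.07, adjusted p = 0.071); it passed with quantile normalization (0.0327), with the replicate block (0.0484) and without FD replicate 3 (0.0106). These are whole-gene values, which do not separate spliced from unspliced Xbp1. Eif2ak3 was at 8.31, 10.5 and 10.1 TPM in FDMn, within or near the FD range (adjusted p = 0.83).

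**Figure D3:**
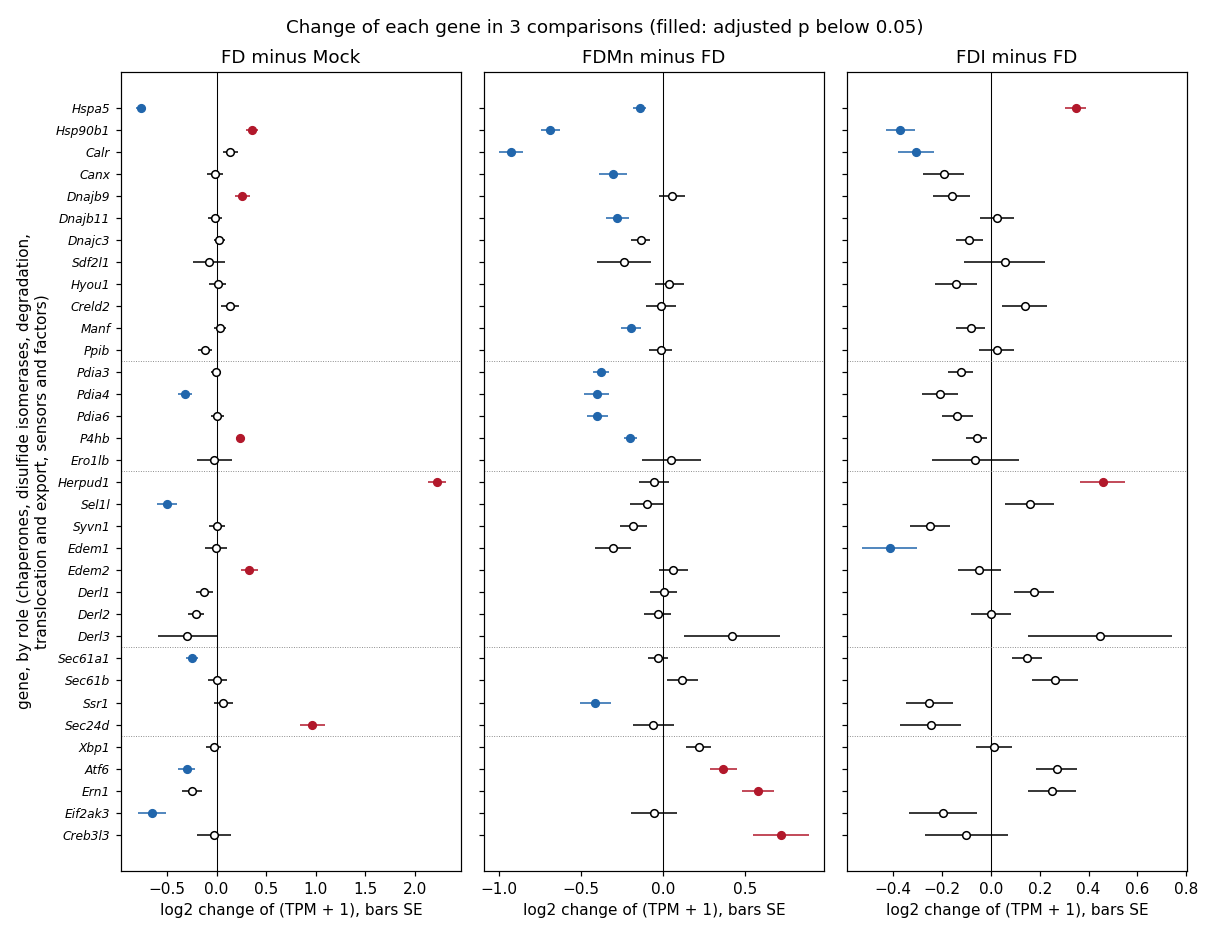
Log2 change of (TPM + 1) with its SE for each of the 34 genes, grouped by role, in FD against Mock, FDMn against FD and FDI against FD; filled points passed the adjusted threshold of 0.05 and each panel has its own scale. In FDMn against FD the 11 genes that fell lie among the chaperones, isomerases and Ssr1, and the 3 that rose among the sensors and factors.

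Read against the promoter elements shown above, 5 of the 9 genes with an ERSE fell in FDMn against FD (Hspa5, Hsp90b1, Calr, Canx and Pdia6) and 4 did not pass (Dnajc3, Creld2, Syvn1 and Derl3), where 7.9% of all genes fell. With quantile normalization 3 of the 9 fell, Hspa5 and Canx no longer passing. Of the 19 genes with a window and no ERSE, 5 fell and 2 rose. The median log2 change was −0.18 for the first and −0.06 for the second. Herpud1 and Dnajb11, which share the ERSE-II, differed: Herpud1 rose in FD and did not pass with manganese, and Dnajb11 did not pass in FD and fell with manganese.

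Fewer of these genes passed with insulin than with manganese. In FDI against FD 2 of the 34 rose (5.88%) and 3 fell (8.82%), where 10.2% of all genes rose and 4.35% fell. Counts this small do not set the 34 genes apart from all genes. The number that fell was 1 without FD replicate 1, FD replicate 2 or FDI replicate 3. In those settings 341, 400 and 359 of the 11544 genes tested fell, against 502 with all 12 libraries. The number that fell was 7, with 4 that rose, without FD replicate 3. Without FD replicate 3, 683 of the 11544 genes tested fell and 1438 rose. With median-of-ratios scaling 6 of the 34 fell, where 671 of all genes tested fell and 878 rose. That scaling moved the share of falls among all calls from 30% to 43.3%. Hspa5, Hsp90b1 and Herpud1 held under all 21 alternatives. Hspa5 was at 554, 566 and 560 TPM in FDI, above every FD library and below every Mock library (0.35 ± 0.04 over FD, adjusted p = 0.000188). Hsp90b1 was at 187, 194 and 186 TPM, below FD and within the Mock range (−0.37 ± 0.06, adjusted p = 0.00137). Both chaperones thus had values between FD and Mock or at Mock. Herpud1 did not: it was at 278, 282 and 314 TPM, higher again than in FD (0.46 ± 0.09, adjusted p = 0.00612) and 6.52-fold over Mock.

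The other 2 calls with insulin were falls. Calr was at 893, 903 and 821 TPM (−0.31 ± 0.07, adjusted p = 0.0155), a call that ended without FD replicate 1, FD replicate 2 or FDI replicate 3 (adjusted p from 0.057 to 0.066). Edem1, which takes misfolded glycoproteins out of the folding cycle, fell from 96.7 ± 12.9 to 71.8 ± 3.77 TPM (adjusted p = 0.0273), and 6 alternatives ended that call, including the removal of FD replicate 1 or 2 or FDI replicate 2 or 3. In this limma comparison 0 of the 14 isomerases, translocation genes and sensors passed. At an unadjusted p below 0.05, 2 isomerases and 1 translocation gene were lower and 2 translocation genes and 2 sensors higher. The share of all genes at that unadjusted threshold was not counted, so these counts have no background. With median-of-ratios scaling 2 isomerases fell. Of the sensors and factors in FDI, Atf6 was at 21.4, 22.9 and 24.4 TPM (adjusted p = 0.0503 against FD, and 0.0145 without FD replicate 3). Ern1 was at 11.9, 12.6 and 15.4 TPM and Creb3l3 at 9.61, 10.8 and 12.7 TPM. Xbp1 was at 83.4, 86.6 and 86.1 TPM and Eif2ak3 at 8.30, 8.52 and 9.08 TPM. Sel1l was at 24.6, 27.2 and 30.5 TPM and Sec24d at 32.5, 35.7 and 36.1 TPM. These values overlapped FD for all of them but Atf6 and Ern1, whose FDI libraries were all above FD.

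The direct comparison of FDMn with FDI had 8 genes that fell and 2 that rose, where 11.9% of all genes fell and 5.68% rose. Those lower with manganese were Hspa5 (−0.49 ± 0.04, adjusted p = 1.3e-05), Calr (−0.62 ± 0.07, adjusted p = 0.000162), Herpud1 (−0.51 ± 0.09, adjusted p = 0.0026), Hsp90b1 (−0.32 ± 0.06, adjusted p = 0.00334), Pdia3, Pdia6, Dnajb11 and P4hb; the P4hb call ended in 14 of 21 alternatives. Those higher were Creb3l3 (0.82 ± 0.17, adjusted p = 0.00643) and Ern1 (0.33 ± 0.10, adjusted p = 0.0397), whose call ended in 8 alternatives. With quantile normalization 4 fell and 4 rose, where 909 and 854 of the 11544 genes tested did. The count that rose was 1 without Mock replicate 3, FDI replicate 1, FDI replicate 2 or any single FDMn replicate. It was 4 without FD replicate 3. Over all 11544 genes tested 631 rose without Mock replicate 3 and 702 without FD replicate 3. Without FDI replicate 1 or 2 the rises numbered 437 and 432. Without FDMn replicate 1, 2 or 3 they numbered 429, 404 and 441, against 656 with all 12 libraries. Hspa5, Hsp90b1, Calr, Herpud1 and Creb3l3 held under all 21 alternatives.

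Set beside untreated cells, with the same Mock libraries in each comparison, 6 of the 34 genes were higher and 15 lower in FDMn (12% and 30.6% of all genes), and 6 were higher and 6 lower in FDI (12.9% and 25.4%). The number higher in FDI was 3 without Mock replicate 2 or FDI replicate 1. Of the 11544 genes tested 1332 and 1289 were higher in those settings, against 1488 with all 12 libraries. With median-of-ratios scaling the counts were 10 higher and 8 lower in FDMn and 7 higher and 3 lower in FDI. Under that scaling 2115 of the 11544 genes tested were higher and 2036 lower in FDMn. In FDI 2191 were higher and 1957 lower. Log2 changes from Mock were, for Hspa5, −0.77 in FD, −0.42 in FDI and −0.91 in FDMn. For Calr they were 0.14, −0.17 and −0.79, of which the last passed. For Pdia4 they were −0.32, −0.53 and −0.72, all past the threshold. Herpud1 was 2.22, 2.68 and 2.16 above Mock, and Eif2ak3 was changed by −0.65, −0.85 and −0.71, and these 2 genes passed in all 3 treated groups. The share of all genes that passed in none of the 6 comparisons was not counted, so the next count has no background. Over all 6 comparisons 8 of the 34 genes passed in none: Dnajc3, Sdf2l1, Hyou1, Ppib, Ero1lb, Derl1, Derl3 and Xbp1. Among these, Xbp1 rose in FDMn against Mock under 6 of 21 alternatives (adjusted p = 0.00267 with median-of-ratios scaling) and in FDMn against FD and FDMn against FDI under 3 each. Dnajc3 rose in FD against Mock with both other scalings (adjusted p = 0.0193 and 0.0409). Ppib fell in FDMn against Mock in the fit of 2 groups (adjusted p = 0.0238) and in FDI against Mock without FDI replicate 1 (0.0474).

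Other genes of the same pathways, listed by function, give the setting, to be read beside the 7.9% of all genes that fell and 7.22% that rose in FDMn against FD. In that comparison 5 of 30 other ER folding factors fell and 2 rose (median log2 change −0.03). Erp29 went from 130 ± 4.30 to 95.1 ± 1.99 TPM and Dnajc1 from 38.5 ± 1.56 to 28.7 ± 0.986 TPM. Of 15 other ER oxidoreductases 1 fell and 1 rose (6.67% each, near the share of all genes): Txndc11 fell from 13.9 ± 0.685 to 10.0 ± 0.259 TPM and Txndc5, a disulfide isomerase, rose from 82.5 ± 0.702 to 107 ± 0.909 TPM, against 127 ± 7.80 TPM in Mock. Of 24 other degradation genes 3 fell. Edem3, the relative of Edem1 and Edem2, was at 14.2 ± 0.765 TPM in Mock and 31.2 ± 0.658 TPM in FD (1.08, adjusted p = 4.49e-07) and was at 18.6 ± 0.405 TPM in FDMn (−0.72, adjusted p = 0.00011). Of 31 other genes of translocation and glycosylation 3 fell (9.68%, near the share of all genes) and 1 rose, the rise being that of the oligosaccharyltransferase subunit Tusc3. None of 23 other ER export genes passed in the limma fit, and 2 were lower at an unadjusted p below 0.05, a threshold at which all genes were not counted.

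Outside the ER lumen, 5 of 20 cytosolic chaperones fell and 1 rose with manganese (2 and 1 with quantile normalization), where 7.9% and 7.22% of all genes did, with Hsp90ab1 going from 1348 to 1115 TPM (−0.27, adjusted p = 0.00146), and 2 of 10 mitochondrial chaperones fell, Trap1 and Clpx. Of 13 other sensors, factors and cleavage proteases 3 fell and 0 rose (1 rose with either other scaling). Among them were Creb3, a relative of Creb3l3, from 77.3 ± 5.27 to 48.0 ± 5.43 TPM, and Mbtps1, the protease that makes the first cut in ATF6, from 24.7 ± 0.715 to 19.3 ± 0.580 TPM. The eIF2α-ATF4 genes, which lie downstream of PERK and of other eIF2α kinases, moved most: 14 of 20 rose in FDMn against FD (median 0.42) and 19 of 20 rose in FDI against FD (median 1.02), where 7.22% and 10.2% of all genes rose. Ddit3 was at 11.3 to 15.8 TPM in FD, 35.8 to 40.2 TPM in FDMn and 76.3 to 85.8 TPM in FDI, and Nupr1 at 7.80 to 11.2, 32.2 to 33.3 and 26.8 to 28.5 TPM. In those same comparisons 0 and 1 of the 12 ER chaperones and helpers rose (0% and 8.33%). For so few genes these counts are near the 7.22% and 10.2% of all genes. In FD against Mock 5 of the 20 eIF2α-ATF4 genes rose and 10 fell (median −0.33), where 11.2% and 29.9% of all genes did. Against Mock 10 of the 20 were higher and 3 lower in FDMn (12% and 30.6% of all genes). In FDI 13 were higher and 1 lower (12.9% and 25.4% of all genes). The counts over FD are therefore not counts over untreated cells.

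**Figure D4:**
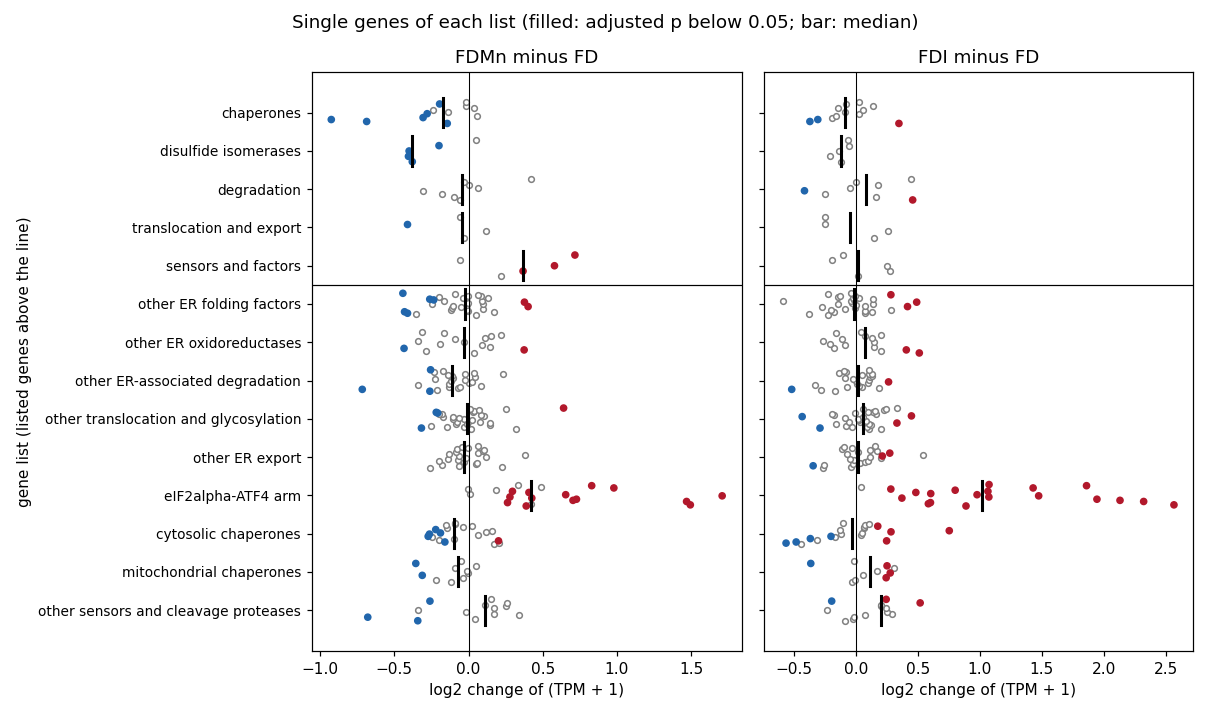
Log2 change of (TPM + 1) of single genes, by list, in FDMn against FD and FDI against FD; filled points passed the adjusted threshold of 0.05, bars are medians, and the 34 genes are above the line. The eIF2α-ATF4 list has medians of 0.42 and 1.02, while the chaperone and isomerase medians are −0.17 and −0.38 with manganese.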

How the data were processed

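RNA was measured by poly-A sequencing (TruSeq kit, per the labels' protocols) in 12 libraries. The authors deposited gene-level TPM; kallisto 0.44.0 and GRCm38.p6 are named in the submitters' processing notes, and DESeq2 without its role. How genes were annotated and strand handled is not given in the sources used here, nor how transcript values became gene values. So overlapping genes may not be told apart. By whole gene span, 12 of the 34 genes overlap a gene on the other strand in GENCODE M21, among them Hsp90b1, Herpud1 and Eif2ak3. Some overlap a gene on the same strand, such as Manf with Rbm15b and Hsp90b1 with Gm15344. How far these pairs share transcript sequence was not examined. Each deposited TPM column sums to 1000000; depth is unknown.

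Columns were matched to samples by library name, and groups come from the titles. Genes at 1 TPM or more in at least 3 libraries were kept (11544, all 34 listed genes among them). The log2(TPM + 1) values were fitted with limma 3.58.1 (R 4.3.3), 1 term per group over all 12 samples, with a variance trend, two-sided tests and Benjamini-Hochberg adjustment over all genes tested, threshold 0.05. The fit was tested on simulated data. Values in every library are given for listed genes that passed with an absolute log2 change of at least 0.5 in FD against Mock, FDMn against FD or FDI against FD, and for the 5 sensors and factors; other pathway genes were named by the smallest adjusted p in FDMn against FD, up to 3 per list. The members, lists and comparisons were chosen with earlier results of these data known. Promoter windows are from RefSeq (GRCm38.p6); protein sequences were not analysed here. Alternatives were 2 other pseudocounts, 2 other filters, 2 scalings, a fit of 2 groups, a replicate term, no variance trend and each library left out.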

Additional observations from a re-analysis of the deposited data

How the results depend on the processing

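Beside the 9 single changes of processing, each of the 12 libraries was left out in turn. Of the comparisons of single genes under these settings, 4052 kept their side of the threshold (146 of these, none a called value, changed sign), 163 lost and 62 gained a call, and 1 gained a call with the opposite sign: Pdia3 in FD against Mock, with a log2 change of 0.16 under median-of-ratios scaling. For the 2 scalings and the fit of 2 groups, the count over all 11544 genes tested is given in parentheses. That scaling gave 11 listed genes higher (2059) and 3 lower (1972) in FD against Mock and 6 lower (671) in FDI against FD. It gave 4 higher (791) in FDMn against FDI, 10 higher (2115) and 8 lower (2036) in FDMn against Mock, and 3 lower (1957) in FDI against Mock. Quantile normalization gave 3 lower (2178) in FD against Mock and 6 lower (690) in FDI against FD. It gave 4 higher (854) and 4 lower (909) in FDMn against FDI, and 9 lower (2314) in FDMn against Mock. The fit of 2 groups gave 7 lower (622) in FDMn against FD. The absence of a filter gave 1 higher in FDMn against FDI, where 537 of the 21494 genes then tested were higher. The cause of these differences was not tested. With 1 library left out, listed genes higher and lower ranged from 5 to 7 and 6 to 7 in FD against Mock. The ranges were 2 to 4 and 6 to 11 in FDMn against FD, and 2 to 4 and 1 to 7 in FDI against FD. In FDMn against FDI they were 1 to 4 and 6 to 10. They were 5 to 7 and 12 to 15 in FDMn against Mock, and 3 to 6 and 5 to 8 in FDI against Mock. Over all 11544 genes tested the ranges were 1167 to 1299 higher and 2949 to 3427 lower in FD against Mock. In FDMn against FD they were 478 to 1005 and 540 to 1020, and in FDI against FD 733 to 1438 and 321 to 683. In FDMn against FDI they were 404 to 715 and 922 to 1509. In FDMn against Mock they were 1159 to 1447 and 2964 to 3685, and in FDI against Mock 1217 to 1570 and 2396 to 3083.

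Replicate numbers gave little sign of pairing. Deviations from group means correlated at −0.0976 to 0.0684 (median 0.0140) for equal numbers. For unequal numbers they correlated at −0.0765 to 0.090 (median −0.00297). In 2 of 12 samples the equal number correlated best in every other group at once, which is a strict count. These values do not settle whether the samples were paired. With a replicate block 4 listed genes were higher and 9 lower in FDMn against FD, and 6 and 6 in FD against Mock. The counts were 2 and 3 in FDI against FD, and 2 and 7 in FDMn against FDI. Over all 11544 genes tested 757 were higher and 826 lower in FDMn against FD with the block. In FD against Mock 1279 and 3381 were, in FDI against FD 1039 and 452, and in FDMn against FDI 584 and 1245.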
